A study of Mus musculus with 45 samples.

Results

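The Notch pathway was followed through 10 genes, which were taken by symbol from the 35372 genes counted in each of 45 strand-specific RNA-seq libraries. They were the receptors Notch1, Notch2 and Notch3, the ligands Dll1, Dll3 and Jag1, and Hes1, Hes5, Hey1 and Hes6 of the hairy and enhancer-of-split family of transcription factors. The cells were E14tg2a, a wild-type male mouse embryonic stem cell (ESC) line of the 129/Ola strain. ESCs were kept in 2iL, which is serum-free N2B27 medium with LIF, the GSK3 inhibitor CHIR99021 and the MEK inhibitor PD0325901, or in SL, which is medium with serum and LIF. From either medium they were differentiated in 3 ways. Embryoid bodies (EBs) were grown in suspension in serum without LIF. Adherent cells in N2B27 with Fgf2 and Activin A (FA) are labelled EpiSC, and adherent cells in N2B27 alone are labelled neural. Every starting medium, course and day (1, 1.5, 2, 2.5, 3, 5 and 7) gave 1 library. The exception is day 5 of the FA course from 2iL, which is not among the 45 libraries. Day 0 had 3 libraries in 2iL, one for each course, and 1 library in SL. Early days are 1, 1.5 and 2, middle days are 2.5 and 3, and late days are 5 and 7. The labels do not say whether the days of a course came from separate cultures. After day 0 no condition had a second library. Libraries of the same course and stage, from both media and different days, stood in as replicates. For day 1 against day 0 in 2iL the 3 courses stood in. The p-values therefore measure the spread of these unlike libraries around the fitted effects, which may be partly technical.

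Notch receptors are cell-surface proteins that are cut when a Delta-like (Dll) or Jagged (Jag) ligand on a neighbouring cell binds them. The freed intracellular domain enters the nucleus and, with the DNA-binding protein Rbpj, switches on genes such as Hes1, Hes5 and Hey1, whose products repress other genes. In the early nervous system this signalling keeps progenitors undifferentiated, with Hes5 and Hes1 in the progenitors and Dll1 in neighbouring cells that start to become neurons.

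The libraries held between 13093226 and 39804240 counted reads, with a median of 18222720, and the 8 libraries of the 2iL EB course were the deepest set with a median of 34490692. The level unit is CPM, a gene's count scaled to a common library total. The summed level of 6 naive ESC markers lay between 3940 and 4180 CPM in the 3 libraries in 2iL at day 0, at 2300 CPM in SL at day 0, and between 45.5 and 300 CPM in the 11 libraries of late days. No pair of the 203 library pairs compared came near counting noise, the closest differing 9.29 times more than counting alone would give.

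Promoter sequences from RefSeq (GRCm38.p6) were given for 8 of the 10 genes, in 10 windows that take the 250 bases before each start site. Hes1 and Hey1 were not among them. The letters TGGGAA, the core to which Rbpj binds, were searched on both strands. They stood in 21.6% of all 32851 windows of this length, and among the 8 genes in Hes5 alone, with 1 match on each strand. The longer GTGGGAA, which contains the first motif, stood in 5.42% of all windows, and at both places in Hes5. The windows of 3 genes are shown because the results below turn on them: Hes5 and Dll1, which were higher in N2B27 at late days, and Hes6, which was lower there at middle days. Dll1 and Hes6 have 2 windows each, none with a match, and the one at the start site farther upstream is shown. Each is written 5′ to 3′ on the strand of its gene, with TGGGAA or its reverse complement in capitals.
Hes5, chr4:154960673-154960922, plus strand: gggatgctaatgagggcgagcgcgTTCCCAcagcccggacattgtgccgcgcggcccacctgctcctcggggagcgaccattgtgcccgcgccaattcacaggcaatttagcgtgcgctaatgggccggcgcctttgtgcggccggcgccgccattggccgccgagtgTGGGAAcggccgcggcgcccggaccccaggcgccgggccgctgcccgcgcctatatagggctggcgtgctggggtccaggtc
Dll1, chr17:15376933-15377182, minus strand: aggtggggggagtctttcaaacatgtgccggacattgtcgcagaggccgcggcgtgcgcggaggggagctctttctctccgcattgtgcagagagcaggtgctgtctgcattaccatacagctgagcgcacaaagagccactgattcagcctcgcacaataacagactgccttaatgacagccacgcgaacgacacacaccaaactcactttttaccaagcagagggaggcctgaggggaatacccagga
Hes6, chr1:91414039-91414288, minus strand: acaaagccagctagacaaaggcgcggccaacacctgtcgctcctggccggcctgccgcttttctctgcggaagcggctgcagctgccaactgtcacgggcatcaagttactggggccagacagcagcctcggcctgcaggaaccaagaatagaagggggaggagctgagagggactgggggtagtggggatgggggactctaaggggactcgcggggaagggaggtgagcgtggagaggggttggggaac
In Hes5 the matches lie 82 and 226 bases before the start site, counted to the first base of each match. A match of letters is a description of the sequence and says nothing about binding in these cells. Hes5 (ENSMUSG00000048001) occupies 154960923 to 154962371 on chromosome 4, Dll1 (ENSMUSG00000014773) 15367354 to 15376872 on chromosome 17, and Hes6 (ENSMUSG00000067071) 91411483 to 91414038 on chromosome 1 (GRCm38). Exons on the opposite strand overlap those of Hes5, Dll1, Notch1 and Notch3, and none of these opposite-strand genes exceeded 0.589 CPM in any library. The counting was strand-specific. Exons of Gm42820 overlap those of Notch2 on the same strand. Gm42820 is not among the genes counted, so how reads in the overlap were assigned cannot be told.

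**Figure D1:**
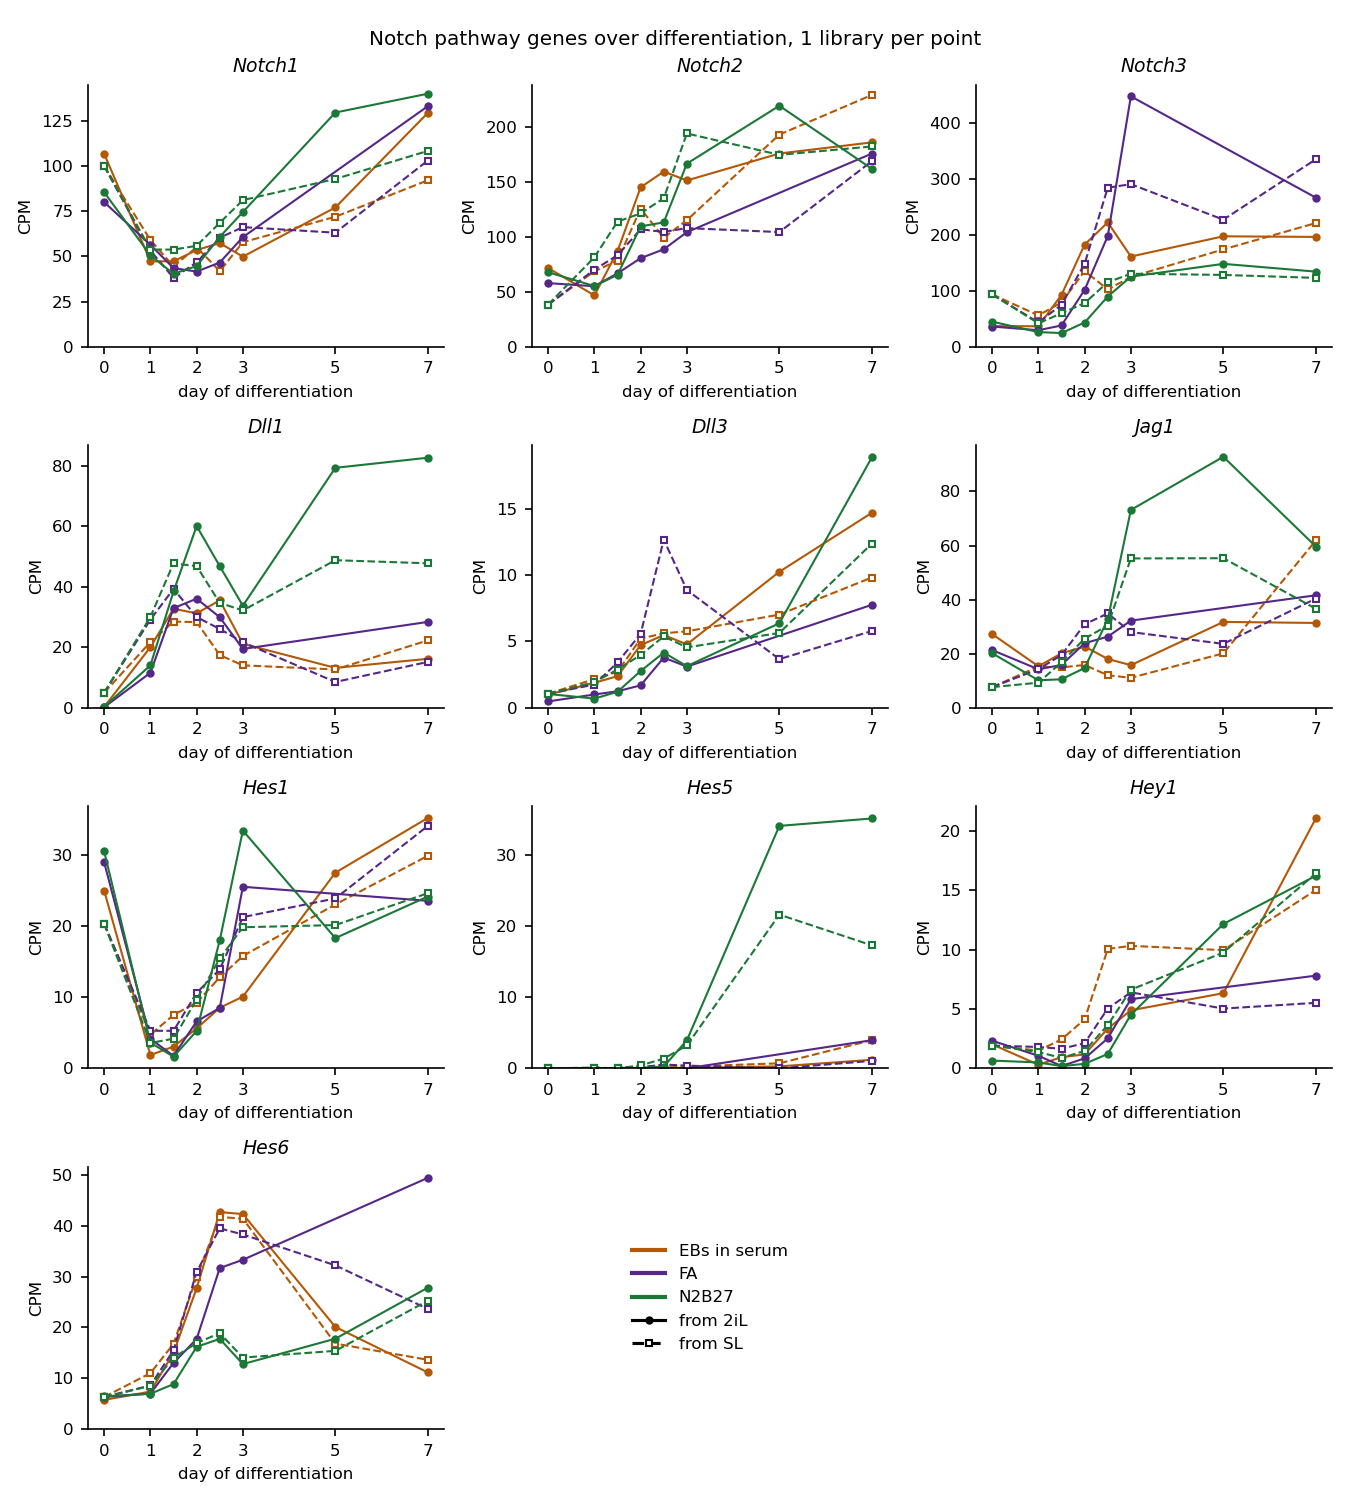
Level of each of the 10 genes in CPM (y axis) against day of differentiation (x axis), 1 library per point. Lines join the days of a course, filled circles and solid lines start from 2iL, open squares and dashed lines start from SL, and the single SL library of day 0 is drawn at the start of all 3 SL lines. Hes5 reached 17.3 to 35.2 CPM at late days in N2B27 and stayed at or below 3.97 CPM in the other courses.

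Exit from 2iL was marked by opposite movements of a ligand and a target. Dll1, a ligand that is a direct activator of Notch receptors, was at 0.208, 0.133 and 0.280 CPM in the 3 libraries of day 0 in 2iL, and at 20.02, 11.5 and 13.99 CPM at day 1 in EBs, FA and N2B27. The 2 days did not overlap, and the day 0 values rest on 7, 2 and 6 reads. The difference was 75.5-fold (log2 6.24 ± 0.63 SE, adjusted p = 3.7e-06, edgeR quasi-likelihood test with Benjamini-Hochberg adjustment). Hes1, a repressor that is switched on by Notch and by other signals, moved the other way. It was at 25.0, 28.9 and 30.5 CPM at day 0 and at 1.87, 4.15 and 3.61 CPM at day 1, again without overlap, a 9.08-fold fall (log2 -3.18 ± 0.44, adjusted p = 7.2e-05). The receptor Notch1 fell from 107, 79.9 and 85.4 CPM to 47.2, 56.3 and 50.6 CPM (log2 -0.84 ± 0.17, adjusted p = 0.0019). These 3 of the 10 genes passed the threshold of 0.05, 1 higher and 2 lower, where 14.6% of all 16306 genes tested were higher and 14% lower, 28.6% together. The log2 difference had a median of -0.63 over the 10 genes and of 0.02 over all genes tested. The other 7 genes did not pass, with Hey1 at log2 -1.44 (adjusted p = 0.097), Jag1 at -0.80 (0.21), Notch2 at -0.33 (0.17), Notch3 at -0.45 (0.47), Dll3 at 0.48 (0.32), Hes6 at 0.18 (0.78) and Hes5, near 0 reads, at -2.15 (0.52). Each of the 3 calls was kept when any 1 course was left out at both days.

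After day 1, Dll1 stood highest at day 1.5 or 2 in the EB course from SL and in FA. Hes1 stood at 1.63 CPM at day 1.5 and at 33.4 CPM at day 3 in the N2B27 course from 2iL. From SL, where day 0 has 1 library and no test was made, Dll1 was at 4.94 CPM at day 0 and at 21.7, 29.2 and 30.0 CPM at day 1. Hes1 was at 20.3 CPM at day 0 in SL and at 4.72, 5.28 and 3.57 CPM at day 1. Both genes differed in the same direction as from 2iL, with a higher starting level of Dll1.

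**Figure D2:**
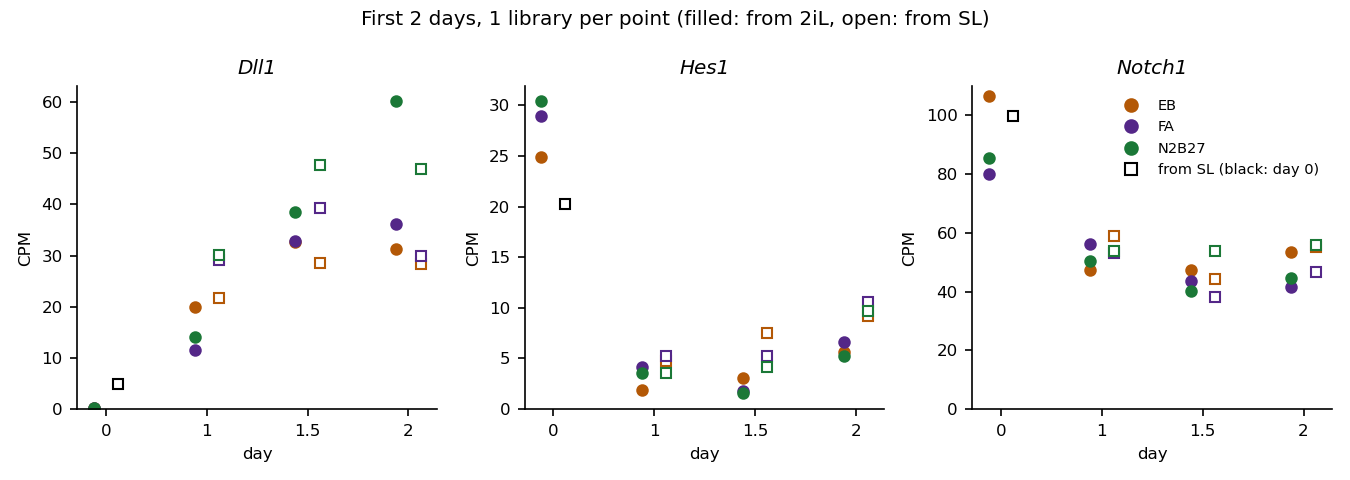
Dll1, Hes1 and Notch1 in CPM (y axes) at days 0, 1, 1.5 and 2 (x axes), 1 library per point, coloured by course, filled from 2iL and open from SL, with the single SL library of day 0 in black. From day 0 to day 1 in 2iL, Dll1 rose from at most 0.280 to at least 11.5 CPM and Hes1 fell from at least 25.0 to at most 4.15 CPM.

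In undifferentiated cells 3 libraries in 2iL were set against the single library in SL. The spread of SL is unknown and was assumed to be that of the 2iL libraries, so the p-values compare these libraries and not the media. Dll1 was 21.7-fold lower in 2iL than in SL, where it was at 4.94 CPM (log2 -4.44 ± 0.50, adjusted p = 0.00038). Notch3, a receptor, was at 37.1, 36.3 and 45.1 CPM in 2iL and at 93.9 CPM in SL (log2 -1.18 ± 0.19, adjusted p = 0.0021). The ligand Jag1 was higher in 2iL, at 27.2, 21.3 and 20.1 CPM against 7.57 CPM (log2 1.65 ± 0.25, adjusted p = 0.0015), and so was Notch2, at 71.6, 57.9 and 67.8 CPM against 38.4 CPM (log2 0.84 ± 0.20, adjusted p = 0.012). These 4 genes passed among the 9 that could be tested, 2 higher and 2 lower, where 13.5% of all 14948 genes tested were higher and 17.3% lower, 30.8% together. Hes5, at 1 read in 1 of the 4 libraries, did not pass the filter on low counts. Notch1, Dll3, Hes1, Hey1 and Hes6 did not pass the test (log2 -0.23 to 0.53, adjusted p at or above 0.085). With the spread estimated over all 45 libraries, the calls of Notch3 and Jag1 were lost (adjusted p = 0.077 and 0.068). Hes1 passed without the 2iL library of the EB course (log2 0.63, adjusted p = 0.049, against 0.53 and 0.085 with it).

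From early to late days most of the 10 genes rose in each course. In EBs 8 rose and 1 fell, where 35.6% of all 16467 genes tested rose and 34.6% fell, 70.2% together. In FA 9 rose and 1 fell, where 32.7% of all genes rose and 30.8% fell, 63.5% together. In N2B27 all 10 rose and 0 fell, where 37.5% of all genes rose and 35.9% fell, 73.4% together, and 0 fell at an unadjusted p under 0.05 or with DESeq2. The median log2 change of the 10 genes was 1.06 in EBs, 1.27 in FA and 1.79 in N2B27, and over all genes tested it was 0.01, 0.02 and 0.01. These are bulk samples, in which more cells of a type and more RNA per cell cannot be told apart. Jag1 in EBs lost its call without the SL library of day 7 (log2 0.39, adjusted p = 0.14, against 0.93 and 0.0022 with it), and Jag1 in FA lost it without day 7 from 2iL or from SL (log2 0.81 and 0.66, adjusted p = 0.056 and 0.084). From SL alone Jag1, Dll3 and Hes5 lost their calls in FA (adjusted p = 0.22, 0.068 and 0.056), and without the terms for day and medium Hes6 lost its call in N2B27 (0.055).

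Among the receptors, Notch3 rose in all 3 courses. In FA it was at 29.7 to 149 CPM at early days, with a median of 59.5, and at 267, 228 and 336 CPM at late days, without overlap, a 4.18-fold rise (log2 2.06 ± 0.23, adjusted p = 1.1e-08). The rise was 2.08-fold in EBs and 2.89-fold in N2B27. The difference in this change did not pass for N2B27 against EBs (adjusted p = 0.25) or FA (adjusted p = 0.27). Whether the rise in FA differed from that in EBs was not tested. The highest single value of Notch3, 448 CPM, was in FA from 2iL at day 3. Notch1 and Notch2 rose in all 3 courses by log2 0.72 to 1.13 and 0.88 to 1.06. Of the ligands, Dll3 rose by log2 1.65 in EBs, 1.25 in FA and 2.20 in N2B27, and Jag1 by 0.93, 0.79 and 2.06.

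Of the Hes and Hey genes, Hey1 is a repressor that Notch switches on in vessels and other tissues. It rose 7.94-fold in EBs, 4.86-fold in FA and 18.5-fold in N2B27. Its early level was low, with a median of 1.33 CPM in EBs, 1.35 CPM in FA and 0.688 CPM in N2B27. In the 2iL libraries of day 0 Hey1 was at 2.02 CPM (EB), 2.33 CPM (FA) and 0.654 CPM (N2B27). The N2B27 course from 2iL was thus lower before differentiation, and the part of this in the folds was not tested. Hes1 rose 5.58-fold, 4.91-fold and 4.79-fold in the same order, from early medians of 5.16, 5.27 and 3.89 CPM. The late means of Hes1 were 28.9, 27.1 and 21.8 CPM. At day 0 it had a mean of 28.1 CPM in 2iL and was at 20.3 CPM in SL, so the late levels were near those before differentiation. Late days were not tested against day 0. Hes5 was at 0 reads in 4 of the 6 early libraries in EBs, in 4 of 6 in FA and in 2 of 6 in N2B27, which at the depths of these 10 libraries allows up to 0.0764 to 0.198 CPM (3 counts, counting error only). Its early reads came to 8, 3 and 12 in all, so a fold against them has a wide counting error and depends on how the fit treats near-zero counts, and its levels are given below instead. Hes6 rose in FA (log2 1.29) and N2B27 (0.82) and did not pass in EBs (-0.17, adjusted p = 0.38). With the days of a stage summed all 10 genes passed in EBs, 8 higher and 2 lower, and Hes6 was then called lower.

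Dll1 fell over time in EBs and FA and rose in N2B27. In EBs it was at 20.02 to 32.7 CPM at early days, with a median of 28.4, and at 13.2, 16.2, 12.6 and 22.3 CPM at late days (2iL days 5 and 7, then SL days 5 and 7). These ranges overlapped, and the fall was 1.81-fold (log2 -0.86 ± 0.24, adjusted p = 0.002). In FA it was at 11.5 to 39.3 CPM at early days, with a median of 31.5, and later at 28.4 CPM (2iL day 7), 8.48 and 15.1 CPM (SL days 5 and 7), a 1.89-fold fall (log2 -0.92 ± 0.27, adjusted p = 0.0041) whose ranges overlapped. In N2B27 it was at 13.99 to 60.1 CPM at early days, with a median of 42.7, and later at 79.4, 82.8, 48.8 and 47.8 CPM, with overlap, a 1.59-fold rise (log2 0.67 ± 0.22, adjusted p = 0.0088). The change was higher in N2B27 than in EBs by log2 1.52 ± 0.33 (adjusted p = 0.00077) and higher than in FA by 1.59 ± 0.35 (adjusted p = 0.002). The rise in N2B27 lost its call without the 2iL library of day 5 (log2 0.48, adjusted p = 0.077), and the fall in FA without the SL library of day 5 (log2 -0.69, adjusted p = 0.065). In the 2iL libraries alone, where FA has 1 late library, the change in FA was log2 0.04 (adjusted p = 0.95). In the SL libraries alone the change in N2B27 was log2 0.22 (adjusted p = 0.30). The rise in N2B27 was also lost with the days of a stage summed within each course (adjusted p = 0.084) and without the terms for day and medium (0.11), and so was the difference from FA (0.092 and 0.080), which did not pass in the 2iL libraries alone either (0.16).

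The change from early to late was not tested for FA against EBs. It was tested for N2B27 against EBs and against FA, for all 10 genes. Against EBs it was higher in N2B27 for 5 genes and lower for 0, where it was higher for 15.7% of all genes and lower for 14.3%, 30.1% together. Besides Dll1 these were Notch1 (log2 0.41), Jag1 (1.12), Hey1 (1.22) and Hes6 (0.99). For Hey1 the late means were close, 13.6 CPM in N2B27 and 13.1 CPM in EBs, while the early means were 0.796 and 1.75 CPM. Courses were not tested against each other at early days. Against FA the change was higher for 3 genes, Dll1, Jag1 (1.26) and Hey1 (1.93), and lower for 0. Among all genes it was higher for 9.24% and lower for 9.87%, 19.1% together. No gene was lower in either at an unadjusted p under 0.05, or with DESeq2. The calls of Notch1 and Hey1 against EBs were lost without the EB library of day 5 from 2iL (adjusted p = 0.11 and 0.077) or the N2B27 library of that day from 2iL (0.094 and 0.053), and that of Notch1 also without the N2B27 library of day 5 from SL (0.064). Jag1 against EBs lost its call without the same 2iL libraries of day 5 (adjusted p = 0.080 and 0.088), the EB library of day 7 from 2iL (0.069) or that of day 5 from SL (0.082). Against FA, Jag1 lost it without FA day 7 (0.069) or N2B27 day 5 (0.058) from 2iL, or FA day 5 (0.11) or N2B27 day 5 (0.055) from SL. For Hes5, whose early counts are near 0, the difference between courses did not pass (log2 3.26 ± 1.75, adjusted p = 0.16 against EBs), except without EB day 7 from SL (log2 4.15, adjusted p = 0.047). Dll3 against FA passed without N2B27 day 5 from 2iL (log2 1.06, adjusted p = 0.044, against 0.96 and 0.064 with it). Notch2, Notch3, Dll3 and Hes1 against EBs (log2 -0.22 to 0.55) and Notch1, Notch2, Notch3, Hes1, Hes5 and Hes6 against FA (log2 -0.53 to 3.08) did not pass. Without the terms for day and medium, Notch1, Jag1, Hey1 and Hes6 against EBs (adjusted p = 0.26, 0.11, 0.31 and 0.14) and Jag1 and Hey1 against FA (0.12 and 0.20) lost their calls. With days summed, Notch1 and Jag1 against EBs (0.10 and 0.11) and Jag1 against FA (0.13) lost theirs. In the libraries of 1 medium alone, each of these calls was lost in at least 1 of the media.

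At late days N2B27 cultures held more of the ligand Dll1 and of the target Hes5 than either other course. Hes5, the Notch target most typical of neural progenitors, was at 34.1, 35.2, 21.6 and 17.3 CPM in N2B27, at 0.276, 1.20, 0.707 and 3.97 CPM in EBs, and at 3.96, 0 and 1.05 CPM in FA. The lowest N2B27 library was above the highest of the others. The fitted difference was log2 4.64 ± 0.68 against EBs (24.8-fold, adjusted p = 2.6e-06) and log2 4.78 ± 0.77 against FA (27.5-fold, adjusted p = 1.8e-05). In the groups, Hes5 averaged 27.1 ± 8.94 CPM in N2B27 (SD, n = 4), 1.54 ± 1.66 CPM in EBs (SD, n = 4) and 1.67 ± 2.05 CPM in FA (SD, n = 3). The late levels of Dll1 are given above, and its lowest N2B27 library, at 47.8 CPM, was above the highest of the other courses, at 28.4 CPM. Dll1 was 4.24-fold higher than in EBs (log2 2.08 ± 0.26, adjusted p = 2.6e-07) and 4.23-fold higher than in FA (log2 2.08 ± 0.30, adjusted p = 3.3e-06). Both genes kept both calls without any 1 library, in the libraries from 2iL alone, in those from SL alone, with days summed and without the terms for day and medium.

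**Figure D3:**
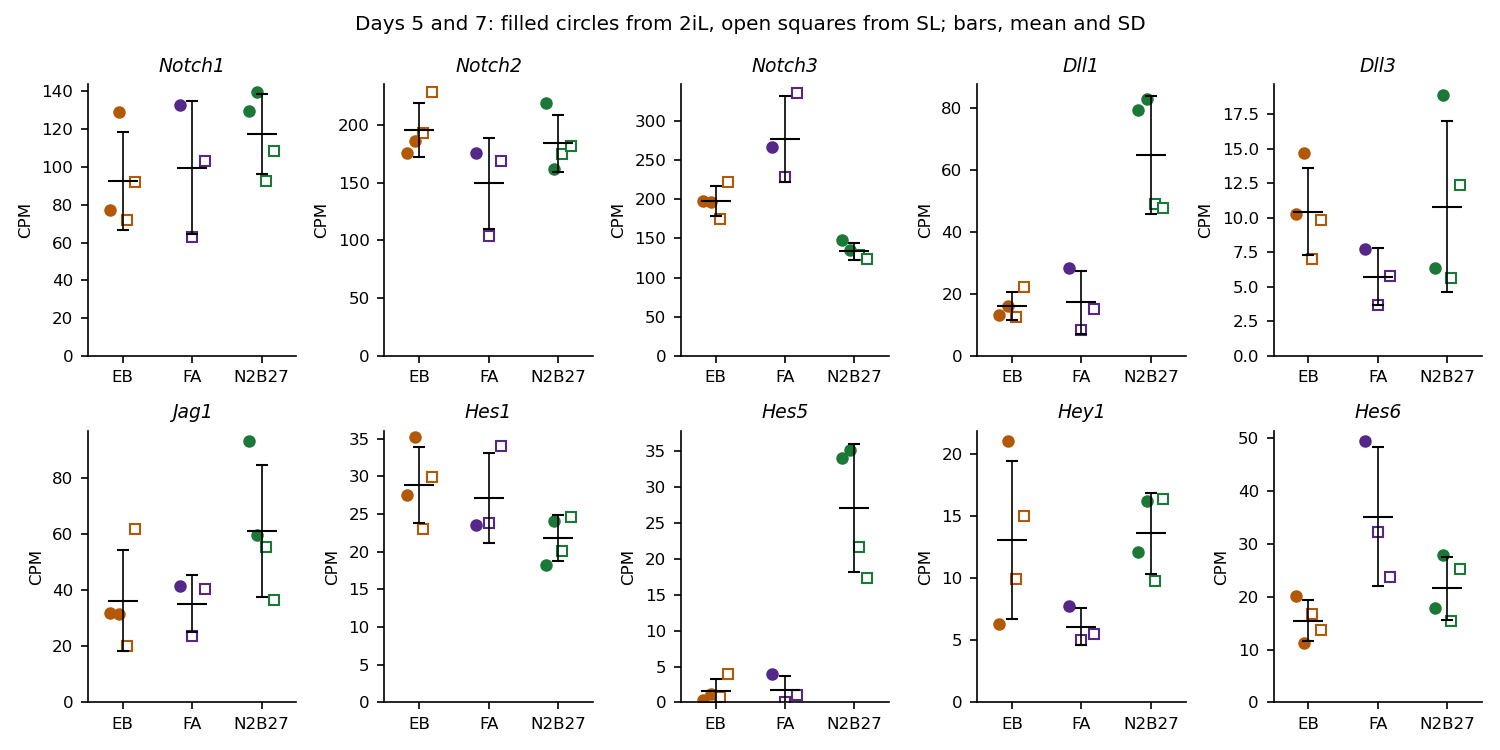
Levels of the 10 genes in CPM (y axes) in the libraries of days 5 and 7 in EBs (n = 4), FA (n = 3) and N2B27 (n = 4), with filled circles from 2iL, open squares from SL, and bars for mean and SD. The 4 N2B27 libraries lie above all others for Dll1 and Hes5 and below all others for Notch3.

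Against EBs at late days 5 of the 10 genes were higher in N2B27 and 0 lower, where 23.4% of all 16467 genes were higher and 24.5% lower, 47.9% together. The share that passed was close to that of all genes. None was lower at an unadjusted p under 0.05 or with DESeq2. The median log2 difference was 0.33 over the 10 genes and -0.01 over all. Besides Dll1 and Hes5 these were Notch1, at 129, 140, 92.7 and 108 CPM in N2B27 and 77.0, 129, 71.8 and 92.0 CPM in EBs (log2 0.46 ± 0.11, adjusted p = 0.00079), Jag1 and Hes6. Notch1 overlapped between the courses but was higher in N2B27 in each pair of the same medium and day. Jag1 was at 92.8, 59.6, 55.3 and 36.6 CPM in N2B27 and at 31.7, 31.3, 20.1 and 61.9 CPM in EBs (log2 0.87 ± 0.29, adjusted p = 0.016), and the EB library of day 7 from SL was above 3 of the N2B27 libraries. Without that library the difference was log2 1.34 (adjusted p = 9.9e-05). The call was lost without EB day 5 or day 7 from 2iL, EB day 5 from SL or N2B27 day 5 from 2iL (log2 0.77, 0.73, 0.67 and 0.57, adjusted p = 0.078, 0.062, 0.082 and 0.098). Hes6, a relative of Hes1 that opposes it, was at 17.8, 27.8, 15.4 and 25.3 CPM against 20.1, 11.2, 16.8 and 13.6 CPM (log2 0.56 ± 0.19, adjusted p = 0.014). Its ranges overlapped, and N2B27 was higher at day 7 and lower at day 5 from either medium. The call was lost without EB day 7 from 2iL, where 3 genes were left, or N2B27 day 7 from 2iL or SL (log2 0.33, 0.45 and 0.41, adjusted p = 0.14, 0.072 and 0.089), and also without the terms for day and medium (0.24), from 2iL alone (0.098) and from SL alone (0.16). From SL alone Jag1 (0.47) and Notch1 (0.057) lost their calls too. Notch2, Notch3, Dll3, Hes1 and Hey1 did not pass (log2 0.01, -0.47, 0.03, -0.32 and 0.21, adjusted p = 0.97, 0.098, 0.93, 0.28 and 0.56), and Notch3 passed from SL alone (log2 -0.55, adjusted p = 0.035).

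Against FA at late days 6 genes were higher in N2B27 and 2 lower, which is 80.0% of the 10, where 18% of all genes were higher and 19.6% lower, 37.5% together, with a median log2 difference of 0.67 beside -0.01. Notch3 was at 149, 135, 129 and 123 CPM in N2B27 and at 267, 228 and 336 CPM in FA, without overlap (log2 -0.95 ± 0.26, adjusted p = 0.0047). Hey1 was at 12.2, 16.2, 9.76 and 16.4 CPM against 7.81, 5.03 and 5.52 CPM, also without overlap (log2 1.32 ± 0.33, adjusted p = 0.002). These and the calls of Dll1 and Hes5 held without any 1 library. Without the terms for day and medium the calls of Notch3 and Hey1 were lost (adjusted p = 0.11 and 0.17), as were those of Notch1, Dll3, Jag1 and Hes6 (0.24, 0.20, 0.084 and 0.28), and from 2iL alone none of these 6 passed (0.051 to 0.27). With days summed Notch1, Dll3 and Jag1 were lost (0.15, 0.10 and 0.054), and from SL alone Notch1, Jag1 and Hes6 (0.11, 0.28 and 0.20). Notch1 (log2 0.37), Dll3 (0.98), Jag1 (0.93) and Hes6 (-0.64) passed with all libraries and not without FA day 7 from 2iL, the single late FA library of that medium (log2 0.36, 0.86, 0.89 and -0.40, adjusted p = 0.055, 0.065, 0.092 and 0.20). Notch1 and Jag1 were also lost without FA day 5 from SL (adjusted p = 0.15 and 0.16) or N2B27 day 5 from SL (0.052 and 0.062), and Jag1 without N2B27 day 5 from 2iL (0.085) or EB day 7 from SL (0.051). Notch2 (log2 0.42, adjusted p = 0.071) and Hes1 (-0.19, 0.62) did not pass. Notch2 passed without N2B27 day 7 from 2iL (log2 0.51, adjusted p = 0.045) and from SL alone (0.044). This comparison shares its N2B27 libraries with the one against EBs.

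FA and EBs differed in 3 of the 10 genes at late days, 1 higher and 2 lower in FA, where 11.5% of all genes were higher and 10.4% lower, 21.8% together. Hes6 was at 49.4, 32.2 and 23.6 CPM in FA and at 20.1, 11.2, 16.8 and 13.6 CPM in EBs, without overlap (log2 1.20 ± 0.20, adjusted p = 7.9e-05). Dll3, an atypical ligand that acts on Notch inside the same cell, was lower in FA (log2 -0.95 ± 0.29, adjusted p = 0.017), at 7.75, 3.66 and 5.78 CPM against 10.3, 14.7, 7.02 and 9.82 CPM. Hey1 was lower too (log2 -1.11 ± 0.32, adjusted p = 0.013), at the FA values above against 6.33, 21.1, 9.96 and 15.0 CPM in EBs. The ranges of both genes overlapped. Without FA day 7 from 2iL the calls of Dll3 and Hey1 were lost (adjusted p = 0.12 and 0.069) and 1 gene was left. Hey1 was also lost without EB day 7 from 2iL (0.060) or FA day 7 from SL (0.068). Without the terms for day and medium both were lost (0.36 and 0.30), from 2iL alone both (0.068 and 0.29), and with days summed Dll3 (0.18). The other 7 genes did not pass (log2 -0.41 to 0.48, adjusted p at or above 0.10), and of these Notch2 and Notch3 passed from SL alone (0.019 and 0.045).

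Markers of several cell types also differed between the courses, some lists in both directions. At late days 5 of 6 neural progenitor markers and 7 of 9 neuron markers were higher in N2B27 than in EBs, with 0 lower, and against FA 2 of 6 and 6 of 9 were higher, with 0 and 1 lower. The neuron markers summed to 106 to 565 CPM in N2B27, 51.9 to 104 CPM in EBs and 87.6 to 313 CPM in FA, and the neural progenitor markers to 252 to 569, 97.7 to 255 and 159 to 383 CPM. The neuronal determination gene Neurog1 was listed at 0 in at least 1 late library of EBs and of FA, and was at 4.63 to 11.9 CPM in N2B27. Its highest values in EBs and FA are not given here, so overlap cannot be judged from these values. All 4 markers of the postimplantation epiblast, from which EpiSCs derive, were lower in N2B27 against either course, and they summed to 132 to 325 CPM in N2B27, 313 to 2470 CPM in EBs and 433 to 756 CPM in FA. Primitive streak markers were lower in N2B27 for 4 of 4 genes against either course, with Mixl1 at 0 in at least 1 N2B27 library, and endoderm markers summed to 896 to 2060 CPM in N2B27, 107 to 1190 CPM in EBs and 58.8 to 230 CPM in FA. Of 6 endothelial markers, a list that holds Dll4 and Notch4, 3 were higher and 1 lower in N2B27 against either course. Of 6 cardiac and lateral mesoderm markers 1 was higher and 2 lower against EBs and 1 higher against FA. Of 4 presomitic mesoderm markers tested, from a list that holds Lfng, 1 was higher and 2 lower against EBs and 1 higher against FA. This list summed to 12.5 to 28.3 CPM in N2B27, 7.51 to 20.2 CPM in EBs and 6.41 to 8.98 CPM in FA. Of 5 endoderm markers 3 were higher and 1 lower against EBs and 5 higher against FA. Of 6 naive ESC markers 3 were higher and 2 lower against EBs, and 2 higher and 1 lower against FA. The part of these cell types in the Notch pathway differences was not tested.

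**Figure D4:**
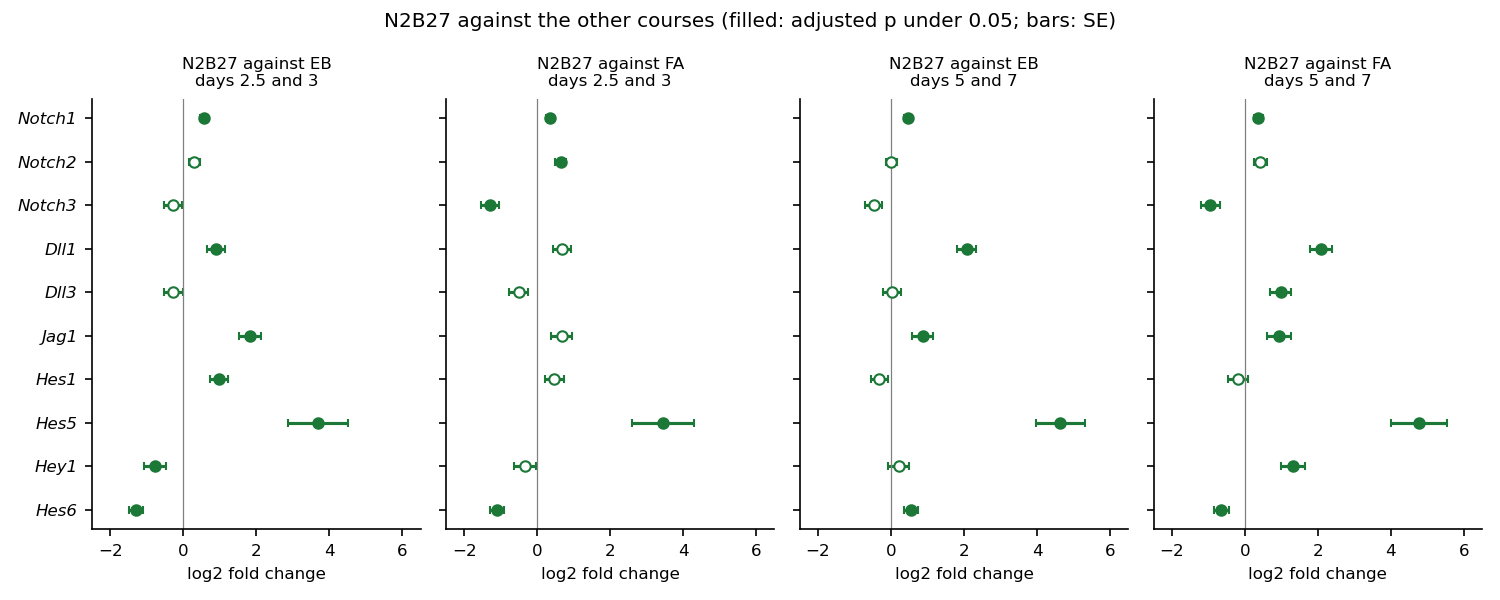
Log2 difference of N2B27 against EBs and against FA (x axes) for the 10 genes (y axis) at middle and late days, with SE as bars and filled points where the adjusted p was under 0.05 (edgeR). Hes5 had the largest differences, from 3.44 to 4.78, and Hes6 lay at -1.31 and -1.10 at middle days.

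At days 2.5 and 3 Jag1 and Hes5 were already higher, and Hes6 lower, in N2B27 than in EBs. Of the 10 genes 7 differed, 5 higher and 2 lower, where 20.7% of all genes were higher and 20.1% lower, 40.8% together, with a median log2 difference of 0.43 beside 0.00. Jag1 was at 32.6, 73.2, 30.4 and 55.2 CPM in N2B27 (2iL days 2.5 and 3, then SL) and at 18, 15.7, 12.0 and 11.02 CPM in EBs, without overlap (log2 1.82 ± 0.30, adjusted p = 2.1e-05). Hes6 went the other way, at 17.7, 12.8, 18.9 and 14.1 CPM against 42.7, 42.3, 41.7 and 41.4 CPM, also without overlap (log2 -1.31 ± 0.19, adjusted p = 2.9e-06). Hes5 was at 0.255, 3.94, 1.36 and 3.22 CPM in N2B27 and at 0.0644, 0.0589, 0.405 and 0.248 CPM in EBs (log2 3.69 ± 0.82, adjusted p = 0.00071), and the ranges overlapped through the lowest N2B27 library. Notch1 (log2 0.56), Dll1 (0.90) and Hes1 (0.98) were higher and Hey1 (-0.77, adjusted p = 0.040) lower. From SL alone Hes1 was at log2 0.35 (adjusted p = 0.19), and without the terms for day and medium its call was also lost (0.090). Dll1 lost its call from 2iL alone (0.071) and without those terms (0.076), and Hey1 in both as well (0.52 and 0.34). The call of Hey1 was lost without N2B27 day 2.5 from 2iL, EB day 2.5 from SL, or N2B27 day 2.5 or 3 from SL (adjusted p = 0.15, 0.19, 0.098 and 0.087). Notch2 (log2 0.30, adjusted p = 0.14), Notch3 (-0.28, 0.35) and Dll3 (-0.28, 0.41) did not pass. Notch2 passed without EB day 2.5 from 2iL (log2 0.45, adjusted p = 0.035) and from SL alone (0.65, 0.0069).

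Cell type markers differed at middle days too. All 4 postimplantation epiblast markers were lower in N2B27 than in EBs and 2 of 4 lower than in FA, with sums of 437 to 939 CPM in N2B27, 2930 to 3460 CPM in EBs and 616 to 1480 CPM in FA. Of 6 neural progenitor markers 3 were higher than in EBs and 1 higher than in FA, and they summed to 132 to 362, 60.4 to 98.7 and 109 to 190 CPM in the same order. Of 4 primitive streak markers 3 were lower against either course, with sums of 6.31 to 12.9, 14.9 to 59.4 and 25.3 to 49.8 CPM. Against EBs 3 of 6 cardiac and lateral mesoderm markers were also higher, with 0 lower. Of 9 neuron, 6 endothelial and 5 endoderm markers, 2 each were higher and 1 each lower than in EBs. Against FA 1 endoderm marker was higher, 1 endothelial marker was lower, and no neuron or cardiac marker passed. Of 4 presomitic mesoderm markers tested 1 was higher, and of 6 naive ESC markers 1 was lower, against either course. The part of these cell types in the differences of Jag1, Hes5 and Hes6 was not tested.

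Against FA at middle days 5 genes differed, 3 higher and 2 lower in N2B27, where 7.1% of all genes were higher and 7.23% lower, 14.3% together. Notch3 was at 90.0, 126, 116 and 131 CPM in N2B27 and at 198, 448, 285 and 291 CPM in FA, without overlap (log2 -1.30 ± 0.24, adjusted p = 0.0005). Hes6 was at 31.7, 33.3, 39.5 and 38.3 CPM in FA, again above all N2B27 libraries (log2 -1.10 ± 0.19, adjusted p = 0.00027). Notch2, a receptor, was at 113, 166, 135 and 194 CPM in N2B27 and at 88.7, 104, 104 and 108 CPM in FA, without overlap (log2 0.64 ± 0.16, adjusted p = 0.0085). Hes5 was at 0.0377, 0, 0.535 and 0.380 CPM in FA (log2 3.44 ± 0.85, adjusted p = 0.0066) and Notch1 was higher by log2 0.36 (adjusted p = 0.021). Without N2B27 day 3 from 2iL the calls of Hes5 (log2 2.47, adjusted p = 0.068) and Notch1 (0.088) were lost and 3 genes were left. Notch1 was also lost without FA day 2.5 (0.12) or day 3 (0.062) from 2iL, or N2B27 day 2.5 from SL (0.062). With days summed Notch2, Hes5 and Notch1 lost their calls (0.056, 0.091 and 0.065). Without the terms for day and medium none of the 5 passed (Notch2 0.17, Hes5 0.069, Notch1 0.28, Notch3 0.067 and Hes6 0.11), and none did from 2iL alone (0.052 to 0.14), while from SL alone Hes5 and Notch1 were lost (0.17 and 0.37). Dll1 (log2 0.68, adjusted p = 0.068), Dll3 (-0.51, 0.19), Jag1 (0.67, 0.12), Hes1 (0.47, 0.20) and Hey1 (-0.33, 0.50) did not pass, and of these Dll1 passed with DESeq2 (0.046) and Dll3 from SL alone (0.019). FA against EBs differed at middle days in 2 genes, both higher in FA, where 14.8% of all genes were higher and 30.2% differed in either direction. Notch3 was at 223, 162, 103 and 125 CPM in EBs, overlapping with FA (log2 1.02 ± 0.24, adjusted p = 0.0016). Jag1 was at 26.2, 32.2, 34.8 and 28.0 CPM in FA, above all EB libraries (log2 1.14 ± 0.29, adjusted p = 0.004). Notch1 passed here without EB day 2.5 from 2iL (adjusted p = 0.028), and Hes1 without FA day 2.5 from 2iL or EB day 2.5 from SL (0.045 and 0.047). Notch3 lost its call without the terms for day and medium (0.085) and from 2iL alone (0.20). With all libraries the 8 other genes did not pass (log2 -0.44 to 0.51, adjusted p at or above 0.12), and Dll3 passed from SL alone (0.014).

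Per kilobase of exon, which allows levels to be compared between genes, the order differed between the courses. At late days in N2B27 Hes5 had the highest mean, 19.8 CPM per kilobase, followed by Notch2 (17.1), Notch3 (16.5) and Dll1 (15.3), and the ranges of these neighbours overlapped. Hey1 (4.18) and Dll3 (3.79) were lowest. In EBs Notch3 led at 24.4 CPM per kilobase, above Notch2 at 18.2 without overlap, and Hes5 was last at 1.13, with a range that overlapped that of Dll3 at 3.67. In FA Notch3 led at 34.2, above Hes6 at 19.4 without overlap, and Hes5 was last at 1.22, with a range that overlapped that of Hey1 at 1.87.

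Cells that came from 2iL and from SL were compared over the 3 courses. At early days, of the 10 genes 5 were lower in cells from 2iL and 0 higher, where 22.1% of all genes were higher and 21.5% lower, 43.6% together, so the share that passed was close to that of all genes. At an unadjusted p under 0.05, 7 were lower and 0 higher, and DESeq2 called 7 lower and 0 higher. Hey1 was at 0.188 to 1.17 CPM from 2iL, with a median of 0.497 over 9 libraries, and at 0.880 to 4.13 CPM from SL, with a median of 1.65 over 9 libraries, with overlapping ranges (3.04-fold, log2 -1.60 ± 0.25, adjusted p = 5.4e-06). Hes1 was at 1.63 to 6.59 CPM with a median of 3.61 from 2iL and at 3.57 to 10.6 CPM with a median of 5.28 from SL (log2 -0.82 ± 0.18, adjusted p = 0.0005). Dll3 (log2 -0.77), Notch3 (-0.47) and Hes6 (-0.32) were the others. These 3 calls were lost with the days of a stage summed (adjusted p = 0.061, 0.11 and 0.072) and without the terms for day and course (0.099, 0.60 and 0.53), while Hey1 and Hes1 kept theirs. Notch1, Notch2, Dll1, Jag1 and Hes5 did not pass (adjusted p at or above 0.053), and of these DESeq2 called Notch2 and Hes5 lower. At late days 1 gene passed, Notch1, which was higher in cells from 2iL (log2 0.39 ± 0.09, adjusted p = 0.013), where 1.91% of all genes were higher and 4.42% differed in either direction. It was at 77.0 to 140 CPM with a median of 129 over 5 libraries from 2iL and at 63.0 to 108 CPM with a median of 92.3 over 6 from SL. That call was lost without N2B27 day 5 from 2iL (adjusted p = 0.10) or N2B27 day 7 from SL (0.064), with days summed (0.064) and without the terms for day and course (0.36). The 9 other genes did not pass (log2 -0.05 to 0.47, adjusted p at or above 0.22). Whether the early and late differences between media themselves differ was not tested.

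A wider list of 54 genes of the pathway (other ligands and receptors, the Rbpj complex, the proteases and glycosyltransferases that process receptors, ubiquitin ligases and further targets) was read in the same fits, and 52 could be tested. At late days 13 were higher and 13 lower in N2B27 than in EBs, beside the 47.9% of all genes. Against FA 17 were higher and 8 lower, 48.1% beside 37.5%. The median log2 difference of the list was -0.07 against EBs and 0.19 against FA. The 8 genes named here passed in the same direction against both courses, and both comparisons share the same 4 N2B27 libraries. The ligand Dll4 was at 2.06 to 2.95 CPM in N2B27, 0.126 to 0.545 CPM in EBs and 0.210 to 0.580 CPM in FA (log2 3.54 and 2.67, adjusted p = 9.7e-06 and 0.0011). Nrarp, a feedback target of Notch, was at 29.9 to 54.4, 12.1 to 21.3 and 9.24 to 26.6 CPM in the same order (log2 1.25 and 1.30, adjusted p = 3.3e-05 and 0.00016). The ubiquitin ligase gene Dtx4 was at 63.6 to 141 CPM in N2B27 and at most 56.0 CPM elsewhere. Adam10, the protease that makes the first cut in a bound receptor, was at 43.4 to 53.9 CPM in N2B27 and at most 40.9 CPM elsewhere. The 4 others were the Fringe glycosyltransferase genes Lfng and Mfng and the γ-secretase subunit gene Aph1b, all higher, and Dtx3l, which was lower at 2.02 to 5.08 CPM against at least 8.97 CPM. Mfng against FA lost its call without N2B27 day 7 from 2iL or FA day 7 from SL (adjusted p = 0.13 and 0.083). Lfng and Aph1b lost their calls against each course under at least 1 alternative, and Adam10, Dtx4 and Nrarp theirs against FA. Lfng was at 11.6 to 27.5 CPM in N2B27 and at 4.22 to 17.4 CPM in EBs, with overlap. Aph1b overlapped too, at 6.71 to 13.3 CPM in N2B27, 4.35 to 8.55 CPM in EBs and 3.24 to 7.67 CPM in FA.

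The genes whose log2(CPM + 1) followed each of the 10 most closely over the 45 libraries were listed among 12558 genes with at least 5 CPM in 3 or more libraries. The libraries share their culture courses and days, so the coefficients describe the common time course. Hes5 was closest to Ednrb (Pearson r = 0.971), Nr2f1 (0.968) and Ly6h (0.958). Dll1 was closest to Efnb2 (0.865), Crmp1 (0.848) and Lin28a (0.840), and Notch3 to Cpeb1 (0.919), Stc2 (0.910) and Lrrfip1 (0.899). Hes6 was closest to Pde4b (0.891), Tub (0.880) and Fermt1 (0.862), and Hes1 to Bach2 (0.916), Slc26a11 (0.905) and Npc2 (0.903). For Notch1 the nearest were Dixdc1, Man2a2 and Tmtc4 (0.904 to 0.924), for Notch2 Tmem132a, Fras1 and Frem2 (0.915 to 0.941), for Dll3 Kif5c, Prickle1 and Cacna1h (0.903 to 0.933), for Jag1 Whsc1, Tgfbr1 and Rtn3 (0.871 to 0.891), and for Hey1 Gucd1, Kif1c and Epb4.1l3 (0.934 to 0.941).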

How the data were processed

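Ribosome-depleted total RNA of 45 samples was sequenced with a directional kit. Per the paper's methods and the labels, the authors trimmed adaptors with TrimGalore, mapped reads to GRCm38 (mm10) with TopHat2 and Ensembl gene models, and counted them by strand with featureCounts. The deposited values are raw counts per gene, without normalization. From these counts, CPM was computed with Python 3.11.15 and pandas 2.3.3, and TMM factors and edgeR quasi-likelihood fits with R 4.3.3 and edgeR 4.0.16, after edgeR's filterByExpr and with Benjamini-Hochberg adjustment over all genes tested at a threshold of 0.05.

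The 41 libraries of days 1 to 7 were fitted with day, medium by stage and course by stage, so the other factors served as a block. The 23 libraries from 2iL were fitted with day and course for day 1 against day 0, and the 4 libraries of day 0 with medium. Scripts were tested on simulated data. The 10 genes, the wider list and the marker lists were chosen with earlier results of these data known. Each comparison gives the 10 genes, those that did not pass singly or as a range. From the wider list those that passed the same way in N2B27 against EBs and against FA at late days are named, at most 8, ranked by the smaller of the absolute log2 differences, and for each of the 10 genes the 3 most correlated. Alternatives were DESeq2 1.42.0, no filter, no block, summed days, one medium only, other libraries for the spread, and each library left out in turn (29 fits). Exon lengths come from GENCODE vM21. Totals of 13093226 to 39804240 counts set the precision, and 3 counts in a library are the floor.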

Additional observations from a re-analysis of the deposited data

Results flagged for a closer look

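Of 80 sets of libraries with 4 to 6 values (a gene in a course at early, middle or late days), 4 held a library far from the rest by Dixon's test, where chance gives about 1 in 20. Dll1 in FA at early days was low at 11.5 CPM in the library of day 1 from 2iL, and Dll1 in N2B27 at middle days was high at 46.9 CPM at day 2.5 from 2iL. Hes5 was high at 0.189 CPM in EBs and at 0.418 CPM in N2B27 among the early libraries, both at day 2 from SL and both on few reads. The early sets span days 1 to 2, over which these genes moved.

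The change from early to late days differed between courses by the test of that difference for 5 genes against EBs and 3 against FA. N2B27 minus EBs was log2 0.41 for Notch1, 1.52 for Dll1, 1.12 for Jag1, 1.22 for Hey1 and 0.99 for Hes6. N2B27 minus FA was 1.59 for Dll1, 1.26 for Jag1 and 1.93 for Hey1.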

How the results depend on the processing

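How many of the 10 genes passed depended most on the block, which comes from the shared medium, course and day labels. With no replicate block, 4 in place of 7 passed in N2B27 against EBs and 0 in place of 5 against FA at middle days (6 at an unadjusted p under 0.05), 1 in place of 2 in FA against EBs at middle days, 2 in place of 8 in N2B27 against FA and 1 in place of 3 in FA against EBs at late days. The difference in change from early to late days then held for 1 in place of 5 (EBs) and 0 in place of 3 (FA, 3 unadjusted), and medium for 2 in place of 5 at early and 0 in place of 1 at late days (1 unadjusted). It changed no more than a factor of 1.5 in the other counts. With the days of a stage summed, 2 and 5 passed in N2B27 against FA at middle and late days, 3 and 1 in the differences of change against EBs and FA, and 2 and 0 for medium at early and late days (3 unadjusted). From 2iL alone, where the single late FA library is assumed to vary like the others, 0 (8 unadjusted), 1, 2 and 1 passed in N2B27 against FA and FA against EBs at middle and then at late days, and 2 and 0 (3 unadjusted) in the differences of change. From SL alone 3 passed in N2B27 against EBs and 5 in FA against EBs at late days, and 1 in the change against EBs. With the libraries of days 0 and 1 alone 6 in place of 3 passed at day 1, and with the spread over all 45 libraries 2 in place of 4 at day 0.

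Leaving out 1 library at a time, 3 to 5 genes passed in N2B27 against FA and 6 to 8 against EBs at middle days, 2 to 3 in FA against EBs, and at late days 4 to 9, 3 to 5 and 1 to 3. From early to late days 8 to 9 passed in EBs, 9 to 10 in FA and 9 to 10 in N2B27, 2 to 6 and 2 to 3 in the differences against EBs and FA, 0 to 1 for medium at late days, 3 at day 1 and 4 to 5 at day 0. In 4 results the direction changed, none of them past the threshold under that alternative: Dll3 in the libraries from 2iL, 0.21 in place of -0.51 (N2B27 against FA, middle) and -0.53 in place of 0.23 (FA against EBs, middle), Dll1 from early to late days in FA from 2iL, 0.04 in place of -0.92, and Hes6 from early to late days in EBs without day 7 from 2iL, 0.05 in place of -0.17 (-0.31 to 0.05 over the libraries left out). The causes were not tested. DESeq2 called 3 results more and none less, and depth limited Hes5 before day 2.5, where it was at 3 to 12 reads over a course.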
